A study of Mus musculus with 6 samples.

Results

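Lipid-associated macrophages are the lipid-laden macrophages that gather around enlarged or dying fat cells in obese adipose tissue. The 10 genes described here, Trem2, Tyrobp, Apoe, Lpl, Fabp5, Gpnmb, Spp1, Lgals3, Cd9 and Cd63, belong to the signature by which these cells are recognised. They were taken by symbol from the annotation of the authors' RPKM table, where all 10 were found once among 24421 genes. TREM2 is a surface receptor that binds lipids and lipoproteins and signals through the adaptor TYROBP, and in mouse adipose tissue it is needed for the lipid-associated program. The other genes encode proteins that carry or break down lipid (APOE, LPL, FABP5), glycoproteins and lectins of lysosomes or of the extracellular space (GPNMB, SPP1, LGALS3) and tetraspanins of membranes and endosomes (CD9, CD63).

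The RNA came from visceral fat macrophages of male C57BL/6N mice on a high-fat diet with 60 kcal% fat, aged 12 weeks per the labels. The mice of the 3 groups were injected subcutaneously once every 6 days over 30 days with 4-OHE1 (4-hydroxyestrone) at 10 mg/kg, with E2 (estradiol) at 10 mg/kg, or with the ethanol vehicle, EtOH. Both compounds are steroid estrogens: 4-OHE1 is a catechol estrogen, with a further hydroxyl group on the aromatic ring and a ketone where E2 has a hydroxyl on the opposite ring. Live cells positive for F4/80 and CD11b were sorted from digested fat, and each group has 2 libraries, 6 in all. Nothing in the labels ties the 2 libraries of a group to separate animals, so the p-values speak only of how far these libraries spread, and part of that may be technical.

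Promoter sequence was available for 7 of the 10 genes, in RefSeq windows of 300 bases of build GRCm38.p6 that run from 250 bases before a gene's start to 50 bases after it. The windows of Trem2 (chr17:48346151-48346450, plus strand), Gpnmb (chr6:49036268-49036567, plus strand) and the upstream start of Spp1 (chr5:104434861-104435160, plus strand) are shown because Gpnmb and Spp1 had the largest decreases of the 10 genes against EtOH in both estrogens and Trem2 is the receptor of the program. Capitals mark matches, on either strand, to TGANTCA, the site of AP-1 factors, or to GAGGAAG, a core of sites of PU.1, the transcription factor that defines macrophages.
Trem2: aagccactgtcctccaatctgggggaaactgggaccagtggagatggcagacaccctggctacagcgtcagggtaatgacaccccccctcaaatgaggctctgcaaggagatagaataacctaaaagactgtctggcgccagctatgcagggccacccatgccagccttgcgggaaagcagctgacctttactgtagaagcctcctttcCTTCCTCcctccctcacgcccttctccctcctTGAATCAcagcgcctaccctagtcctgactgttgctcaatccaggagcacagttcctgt
Gpnmb: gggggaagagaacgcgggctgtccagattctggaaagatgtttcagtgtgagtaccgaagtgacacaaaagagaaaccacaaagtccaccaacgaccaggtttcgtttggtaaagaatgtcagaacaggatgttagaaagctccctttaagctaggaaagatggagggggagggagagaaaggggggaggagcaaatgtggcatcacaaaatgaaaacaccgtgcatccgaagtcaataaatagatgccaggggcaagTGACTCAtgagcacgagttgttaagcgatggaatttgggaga
Spp1: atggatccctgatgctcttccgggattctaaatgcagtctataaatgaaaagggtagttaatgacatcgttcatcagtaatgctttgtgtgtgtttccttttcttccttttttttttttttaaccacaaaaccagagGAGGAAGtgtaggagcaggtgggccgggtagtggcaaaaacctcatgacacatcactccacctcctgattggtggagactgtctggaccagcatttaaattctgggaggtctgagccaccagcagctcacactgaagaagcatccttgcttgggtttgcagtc
In the Trem2 window the PU.1 core, read on the opposite strand, takes bases 210 to 216 and the AP-1 site bases 242 to 248, with the gene's start at base 251. In the Gpnmb window the AP-1 site lies just inside the gene, at bases 259 to 265, and in the Spp1 window the PU.1 core lies at bases 138 to 144. Of all 32851 promoter windows, 7.81% hold the AP-1 site and 13.6% the PU.1 core, and the 2 do not overlap in the windows shown. Among the 10 windows of the 7 genes, 2 held the AP-1 site and 3 the PU.1 core, the third being Cd63. None of the 10 windows held CACGTG, the E-box of the MITF and TFE factors (7.15% of all windows), or TCATGTG, the core of their M-box (3.77%). None held the estrogen response element, GGTCA and TGACC parted by any 3 bases (0.0700%), or the glucocorticoid response element, GNACA and TGTNC parted by any 3 bases (0.475%). Absent letters in these windows say nothing of what a factor binds elsewhere.

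The libraries held 5764342 and 4515276 exon reads in 4-OHE1, 5349386 and 5606659 in E2, and 18697456 and 35293924 in EtOH. Exons held 61.7% ± 1.19 of the reads in 4-OHE1, 74.1% ± 2.41 in E2 and 84.8% ± 0.366 in EtOH, and the nuclear RNA Malat1 averaged 919 ± 93.6 RPKM in 4-OHE1, 433 ± 103.6 RPKM in E2 and 199 ± 1.83 RPKM in EtOH (SD, n = 2 each). RPKM, the unit the authors deposited, is a read count divided by exon length and by all tags of the library, exonic or not. Each change was therefore computed on the authors' RPKM and again relative to exon reads, and a gene is said to have risen or fallen only where both passed at an adjusted p of 0.05. The median log2 change over the 10950 tested genes was -0.44 in 4-OHE1 against EtOH, -0.18 in E2 against EtOH and -0.25 in 4-OHE1 against E2 on the authors' scaling. Relative to exon reads these medians were -0.04, -0.00 and -0.02. Exon share and Malat1 level separated the 3 groups, and both EtOH libraries had more exon reads than any other. Neither scaling can tell these library differences apart from treatment, and their part in the changes below was not tested. Log2 changes below are of RPKM + 1 relative to exon reads, and the limma adjusted p given with a change is whichever of the 2 scalings had the larger one.

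The sorted cells carried all 8 macrophage markers in every library. Their summed levels were 3957 to 4066 RPKM in 4-OHE1, 5578 to 5856 RPKM in E2 and 8189 to 8329 RPKM in EtOH. Most of each sum was Lyz2, with means of 2366 RPKM in 4-OHE1, 3669 RPKM in E2 and 5765 RPKM in EtOH. The median log2 change of the 8 markers relative to exon reads was -0.28 in 4-OHE1 and -0.05 in E2 against EtOH. Of these 8, 4 fell and 1 rose in 4-OHE1 against EtOH, 2 fell in E2 against EtOH, and 4 fell and 1 rose in 4-OHE1 against E2. Beside these and the marker counts below, 13.9%, 2.17% and 7.14% of all tested genes fell in the 3 comparisons, and 5.74%, 1.75% and 2.5% rose. Adgre1, which encodes the sorting antigen F4/80, fell by 0.66 on the log2 scale in 4-OHE1 and by 0.62 in E2 against EtOH, whereas Mertk, a receptor for dying cells, rose in 4-OHE1 (log2 change 1.18) and Csf1r, the receptor of the macrophage growth factor, did not pass in either (0.27 and -0.04). The 7 markers of resident perivascular macrophages summed to 3110 to 3169 RPKM in 4-OHE1, 3352 to 3451 RPKM in E2 and 3743 to 3820 RPKM in EtOH. All marker sums are on the authors' scaling. Relative to exon reads, the median log2 change of these 7 markers was 0.17 in 4-OHE1 and 0.01 in E2 against EtOH, not a decrease. Cd163 rose in all 3 comparisons, Mrc1 rose in 4-OHE1 against E2 and Folr2 fell in 4-OHE1 against EtOH. The 8 adipocyte markers summed to 250.1 to 259 RPKM in 4-OHE1, 169 to 170.1 RPKM in E2 and 65.4 to 68.3 RPKM in EtOH, with 6 risen in 4-OHE1 and 3 in E2 against EtOH. The 6 stromal markers summed to 126 to 128 RPKM in 4-OHE1, 167 to 171 RPKM in E2 and 236 to 240.3 RPKM in EtOH, with 3 fallen in each estrogen. The 6 monocyte markers summed to 34.4 to 39.1 RPKM in 4-OHE1, 180.4 to 198 RPKM in E2 and 111 to 113 RPKM in EtOH, most of it Fn1. Of the 5 tested, 3 fell in 4-OHE1 and 3 rose in E2 against EtOH, while Ccr2 did not pass in E2 (log2 change -0.41). The 5 peritoneal macrophage markers summed to 3.59 to 3.94 RPKM in 4-OHE1, 65.0 to 67.4 RPKM in E2 and 6.31 to 8.34 RPKM in EtOH. Of the 4 tested, none passed in 4-OHE1 and 4 rose in E2 against EtOH. The untested Gata6 had at most 0.804 RPKM in any library. T cell, eosinophil, neutrophil and dendritic cell markers summed to at most 3.93 RPKM in any library, with Ly6g, Camp and Epx listed at 0 in all 6, mesothelial markers to at most 8.47 RPKM, B cell markers to 7.95 to 11.9 RPKM and endothelial markers to 16.7 to 27.5 RPKM. The part of these shifts in the results was not tested, and in bulk RNA fewer lipid-associated cells and less of these RNAs per cell cannot be told apart.

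Of the 10 genes, 9 fell in 4-OHE1 against EtOH, where 13.9% of the 10950 tested genes fell, and 8 fell in E2 against EtOH, where 2.17% did (5 of the 10 without EtOH replicate 2). Against E2, 9 fell in 4-OHE1, where 7.14% of tested genes fell. No member rose in any comparison, where 5.74% of tested genes rose in 4-OHE1 against EtOH, 1.75% in E2 against EtOH and 2.5% in 4-OHE1 against E2, and all 10 passed the filter on low values. The share of genes that rose depends on the scaling: relative to exon reads alone, 1399 genes were higher and 1521 lower in 4-OHE1 against EtOH, 348 and 238 in E2 against EtOH, and 607 and 782 in 4-OHE1 against E2. In 4-OHE1, Spp1, Gpnmb, Lpl, Fabp5 and Cd9 had the largest decreases, Lgals3 and Trem2 came next, Apoe and Cd63 fell by small amounts, and Tyrobp did not pass. The 8 members that fell in all 3 comparisons, that is all but Tyrobp and Cd63, stood beside 91 of the 10950 genes that did so (0.831%). The comparisons share libraries, so the 3 counts are not independent of each other.

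**Figure D1:**
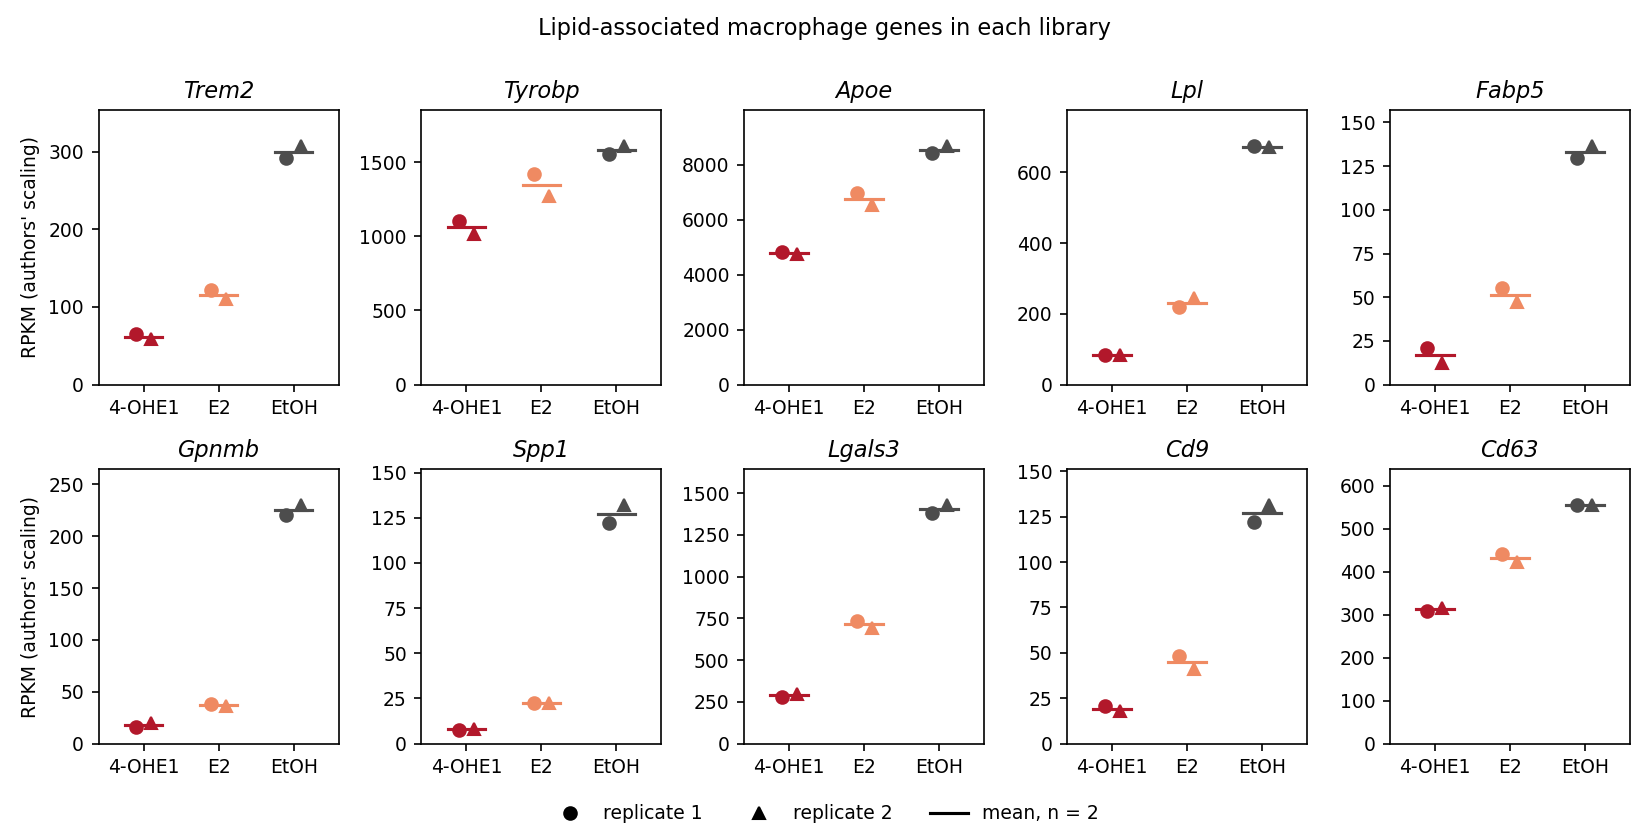
Level of each gene in RPKM (authors' scaling, linear axes from 0) in the 4-OHE1, E2 and EtOH libraries. Points are libraries, with a circle for replicate 1 and a triangle for replicate 2, and lines are means of 2 libraries. In all 10 panels both 4-OHE1 points lie below both E2 points, and both E2 points below both EtOH points. On this scaling 45.7% of all tested genes lay so in 4-OHE1 against E2 and 50.8% in E2 against EtOH. Relative to exon reads, Tyrobp overlapped in both of these comparisons.

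Trem2, the receptor (transcript NM_031254, mm9 chromosome 17, 48485726 to 48491601, plus strand), stood at 64.7 and 58.8 RPKM in 4-OHE1, 122 and 110.1 RPKM in E2, and 292 and 307 RPKM in EtOH. The libraries of each group lay close together and no groups overlapped. Relative to exon reads, 28.3% of the EtOH level was left in 4-OHE1 (log2 change -1.81, SE 0.0717, limma adjusted p = 4.0e-05) and 44.2% in E2 (-1.17, limma adjusted p = 0.00102). Its partner Tyrobp, a small adaptor that carries the activating signal of several myeloid receptors (NM_011662, mm9 chromosome 7, 31198807 to 31202598, plus strand), stood at 1104 and 1018 RPKM in 4-OHE1, 1419 and 1273 RPKM in E2, and 1553 and 1609 RPKM in EtOH. In RPKM these groups were separate, but relative to exon reads E2 replicate 1, at 1587, lay between the EtOH libraries at 1558 and 1605. The log2 change of Tyrobp was -0.12 in 4-OHE1 (95% interval -0.23 to -0.0014, limma adjusted p = 0.122) and -0.04 in E2 (interval -0.15 to 0.08, limma adjusted p = 0.766). On the authors' scaling alone it was -0.58 in 4-OHE1 and passed (limma adjusted p = 0.00134), where the median of all genes was -0.44. The difference between the changes of the receptor and its adaptor was not tested as such.

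The change in Trem2 can be read without any scaling as its level against Tyrobp in the same library. Trem2 RPKM were 5.86% and 5.78% of Tyrobp RPKM in 4-OHE1, 8.57% and 8.65% in E2, and 18.8% and 19.1% in EtOH. The libraries of a group differed by far less than the groups did. The same ratio separated all 3 groups for the other 8 genes too, by small steps for Cd63, at 28.0% and 31.0% in 4-OHE1, 31.2% and 33.3% in E2, and 35.7% and 34.5% in EtOH. What share of all tested genes this ratio would separate was not computed. The ratio of Spp1 was 0.748% ± 0.0833 of Tyrobp in 4-OHE1, 1.66% ± 0.120 in E2 and 8.03% ± 0.230 in EtOH (SD, n = 2 each).

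**Figure D2:**
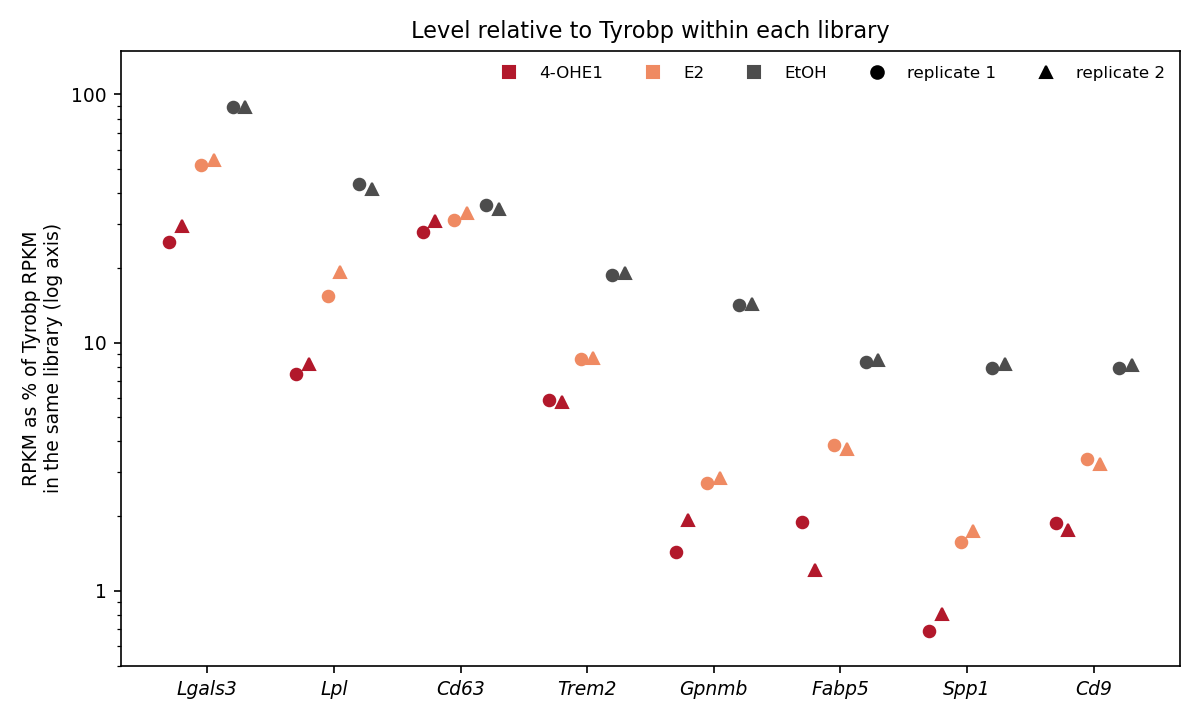
RPKM of 8 genes as a percentage of Tyrobp RPKM in the same library, on a log axis, for 4-OHE1, E2 and EtOH libraries (circle, replicate 1; triangle, replicate 2). Trem2 lies at 5.78% to 5.86% in 4-OHE1, 8.57% to 8.65% in E2 and 18.8% to 19.1% in EtOH, while Cd63 spans only 28.0% to 35.7% over all libraries.

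Among the lipid genes, Apoe, which encodes the lipoprotein that carries cholesterol out of macrophages and is a ligand of TREM2 (NM_001305844, mm9 chromosome 7, 20281593 to 20283970, minus strand), was the most abundant member. It stood at 4823 and 4746 RPKM in 4-OHE1, 6980 and 6538 RPKM in E2, and 8420 and 8677 RPKM in EtOH. The groups were separate, and in each group only 1 gene of the table had a higher mean. Relative to exon reads 77.0% of the EtOH level remained in 4-OHE1 (log2 change -0.38, limma adjusted p = 0.000285) and 90.5% in E2 (-0.14, limma adjusted p = 0.0261). The change in E2 did not pass without either E2 or either EtOH library, with adjusted p between 0.115 and 0.319, nor with no filter on low values (0.363).

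Lpl encodes lipoprotein lipase, which releases fatty acids from lipoprotein triglyceride (NM_008509, mm9 chromosome 8, 71404454 to 71430831, plus strand). Its level was 82.7 and 83.8 RPKM in 4-OHE1, 219 and 245 RPKM in E2, and 675 and 671 RPKM in EtOH. No groups overlapped, and replicates differed by little beside the gaps between groups. Its log2 change was -2.54 in 4-OHE1 (SE 0.0829, limma adjusted p = 2.1e-05), leaving 17.0% of the EtOH level, and -1.34 in E2 (limma adjusted p = 0.000858), leaving 39.5%. Fat cells also express Lpl. The summed adipocyte markers given above were higher where Lpl was lower, and what fat cells contributed to the Lpl reads was not tested. Lpl passed under every one of the 16 alternatives tried in each comparison.

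Fabp5 encodes the fatty acid binding protein that shuttles lipids within macrophages and skin cells (NM_010634, mm9 chromosome 3, 10012585 to 10016610, plus strand). It had 21.0 and 12.4 RPKM in 4-OHE1, 55.1 and 47.3 RPKM in E2, and 130 and 136 RPKM in EtOH. The groups were separate, but the 4-OHE1 libraries, which rest on 183 and 87 reads, differed from each other more than for any other member, with a coefficient of variation of 36.4%. For Fabp5 this gave a log2 change of -2.53 in 4-OHE1 (SE 0.214, limma adjusted p = 0.000696) and of -1.17 in E2 (limma adjusted p = 0.0320). In E2 the call was lost without either E2 or either EtOH library (adjusted p 0.176 to 0.245) and with no filter on low values (0.0977). Fabp5 has processed pseudogenes in the mouse genome, and how reads that match several places were counted is not given in the sources used here. Fabp4, its close relative and the classical fatty acid binding protein of fat cells, went the other way: it rose to 628 ± 11.2 RPKM in 4-OHE1 and 557 ± 3.64 RPKM in E2, against 379 ± 6.17 RPKM in EtOH (SD, n = 2 each; log2 changes 1.19 and 0.75, limma adjusted p = 0.000233 and 0.00333).

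Gpnmb encodes a transmembrane glycoprotein of lysosomes that marks lipid-loaded macrophages (NM_053110, mm9 chromosome 6, 48986517 to 49008181, plus strand). Its level was 15.9 and 19.7 RPKM in 4-OHE1, 38.6 and 36.2 RPKM in E2, and 220.2 and 229.8 RPKM in EtOH. Both estrogen groups lay far below EtOH and apart from each other. Gpnmb had a log2 change of -3.16 in 4-OHE1 (SE 0.123, limma adjusted p = 3.7e-05) and of -2.37 in E2 (limma adjusted p = 0.000564), which put it in place 27 and place 7 from the lowest change among the 10950 tested genes.

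Spp1 encodes osteopontin, a secreted phosphoprotein that binds integrins and CD44 (NM_009263, mm9 chromosome 5, 104864130 to 104870072, plus strand). It had 7.61 and 8.21 RPKM in 4-OHE1, 22.4 and 22.2 RPKM in E2, and 122 and 132 RPKM in EtOH. Reads, which were counted on another transcript (NM_001204233), numbered 99 and 86 in 4-OHE1 and 3829 and 7762 in EtOH. The 3 groups of Spp1 values were well apart. Its log2 change was -3.43 in 4-OHE1 (SE 0.105, limma adjusted p = 2.0e-05), or 8.57% of the EtOH level left, and -2.27 in E2 (limma adjusted p = 0.000396), or 20.1%. These were places 15 and 9 from the lowest of 10950 genes, and Spp1 passed under all 16 alternatives in each comparison.

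Lgals3 encodes galectin-3, a lectin that macrophages secrete and that gathers on damaged lysosomes (NM_010705, mm9 chromosome 14, 47993535 to 48005842, plus strand). It stood at 281 and 299 RPKM in 4-OHE1, 735 and 693 RPKM in E2, and 1383 and 1428 RPKM in EtOH. The groups did not overlap. The log2 change was -1.81 in 4-OHE1 (SE 0.0538, limma adjusted p = 2.0e-05) and -0.78 in E2 (limma adjusted p = 0.00127), with 28.4% and 58.1% of the EtOH level left. It too passed under all 16 alternatives in each comparison. Trem2 and Lgals3 had log2 changes of -1.81 each in 4-OHE1, and of -1.17 and -0.78 in E2. The same-family Lgals1, a galectin of many cell types, fell in 4-OHE1 (log2 change -0.81) and had a change of 0.01 in E2 that did not pass (limma adjusted p = 0.971).

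Of the tetraspanins, Cd9, a surface protein by which lipid-associated macrophages are sorted (NM_007657, mm9 chromosome 6, 125410284 to 125444773, minus strand), had 20.8 and 17.9 RPKM in 4-OHE1, 48.4 and 41.2 RPKM in E2, and 122 and 131 RPKM in EtOH. The groups were separate. The log2 change was -2.21 in 4-OHE1 (SE 0.107, limma adjusted p = 9.7e-05) and -1.29 in E2 (limma adjusted p = 0.00232). Without EtOH replicate 2 the change in E2 narrowly missed the threshold (adjusted p = 0.0502).

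Cd63, a tetraspanin of late endosomes and lysosomes (NM_007653, mm9 chromosome 10, 128346922 to 128349874, plus strand), had 309 and 315 RPKM in 4-OHE1, 443 and 423 RPKM in E2, and 554 and 555 RPKM in EtOH. The groups were separate here too, but by small steps. The log2 change was -0.37 in 4-OHE1 (SE 0.0469, limma adjusted p = 0.00303, and 0.0511 without EtOH replicate 1). In E2 it was -0.16, with an interval of -0.28 to -0.05, and did not pass (limma adjusted p = 0.121). On the authors' scaling alone the E2 change was -0.36 and passed (0.0157). Of other tetraspanins, the widely expressed Cd81 had 265 ± 1.26 RPKM in 4-OHE1, 252 ± 13.9 in E2 and 277 ± 4.23 in EtOH (SD, n = 2 each) and passed in no comparison, and Cd37, a tetraspanin of leukocytes, fell in 4-OHE1 by 0.45 on the log2 scale.

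**Figure D3:**
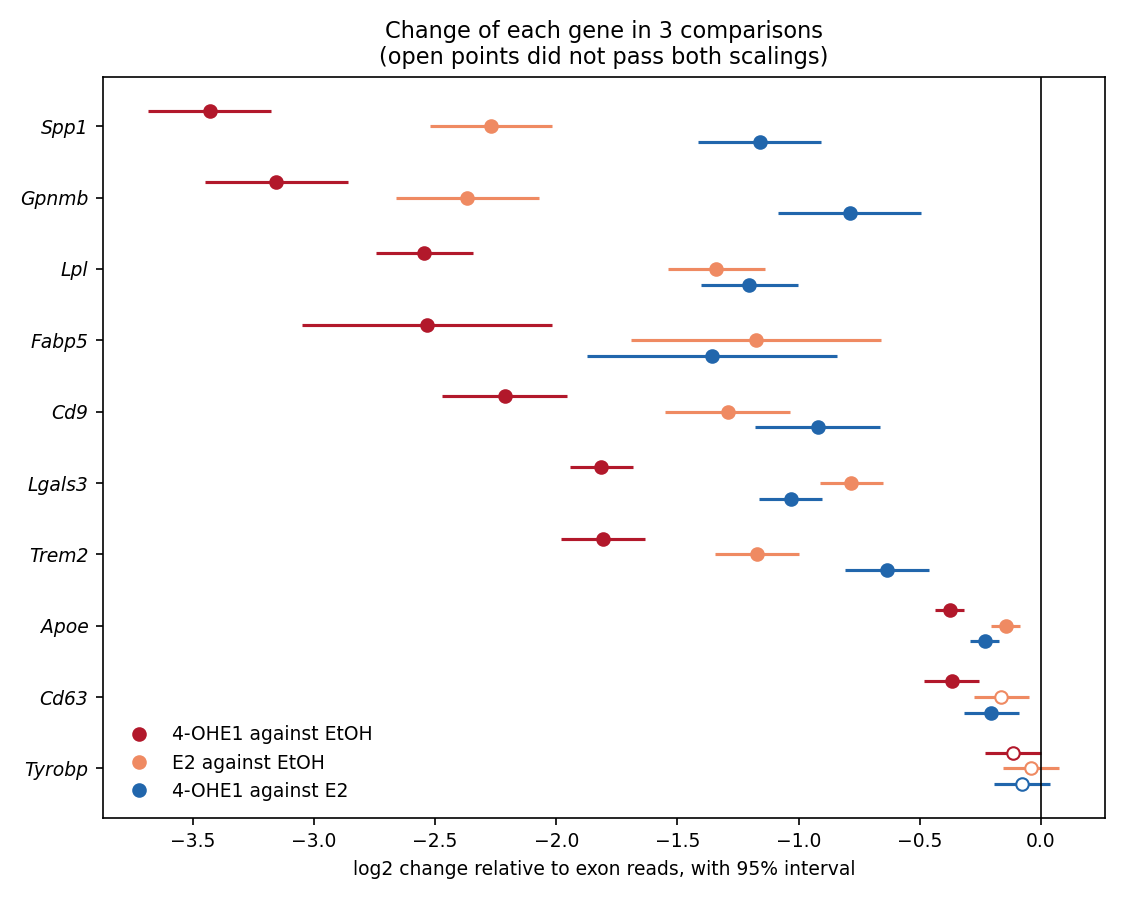
Log2 change relative to exon reads, with its 95% interval, of the 10 genes in 4-OHE1 against EtOH, E2 against EtOH and 4-OHE1 against E2. Open points did not pass both scalings. Spp1 is lowest at -3.43 in 4-OHE1 against EtOH, and Tyrobp has open points near 0 in all 3 comparisons.

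The 2 estrogens were given at the same dose on the same schedule, and 1 pair of compounds was compared. In 4-OHE1 against E2, the log2 change was -1.36 for Fabp5 (SE 0.214, limma adjusted p = 0.0140), -1.20 for Lpl (0.00104), -1.16 for Spp1 (0.00289) and -1.03 for Lgals3 (0.000495). These 4 genes thus fell at least 2-fold in 4-OHE1, as did 2.61% of all tested genes, counting only those that passed on both scalings. Cd9 changed by -0.92 (limma adjusted p = 0.00566), Gpnmb by -0.79 (0.0135) and Trem2 by -0.64 (0.00521). Apoe changed by -0.23 (limma adjusted p = 0.00454) and Cd63 by -0.21 (0.0395). Tyrobp did not pass, at -0.08 with an interval of -0.19 to 0.04 (limma adjusted p = 0.324), although on the authors' scaling alone it did (-0.34, 0.0186). For each of these genes except Tyrobp, both 4-OHE1 libraries lay below both E2 libraries on both scalings. Of all tested genes, 27.1% lay so relative to exon reads and 45.7% on the authors' RPKM.

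Calls between the estrogens depended on single libraries. Without E2 replicate 1, 3 members were called in 4-OHE1 against E2, namely Lgals3, Lpl and Spp1, and Trem2 (adjusted p = 0.0543), Cd9 (0.0579), Apoe (0.0548), Gpnmb (0.0931), Fabp5 (0.109) and Cd63 (0.117) were not. Without E2 replicate 2, 6 were called. Gpnmb was also lost without either EtOH library (0.0556 each), and Cd63 was lost under 8 of 16 alternatives.

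Across the members, the median log2 change was -2.01 in 4-OHE1 against EtOH, -1.17 in E2 against EtOH and -0.85 in 4-OHE1 against E2, where the medians of all tested genes were -0.04, -0.00 and -0.02. In the same 3 comparisons 7, 6 and 4 members fell at least 2-fold, against 5.16%, 0.84% and 2.61% of all tested genes. Members and tested genes were counted here only where they passed on both scalings. Relative to exon reads, all libraries of the first-named group lay below all of the other for 10, 9 and 9 members, which was so for 35.2%, 29.8% and 27.1% of tested genes. On the authors' RPKM it held for 10 members each time, against 63.2%, 50.8% and 45.7% of genes. In the authors' deposited table the log2 changes of the 10 genes run from -3.62 for Spp1 to -0.18 for Tyrobp in 4-OHE1 against EtOH, and from -2.42 for Gpnmb to -0.07 for Tyrobp in E2 against EtOH. In the authors' deposited table Apoe did not pass in E2 (adjusted p = 0.258), unlike in the limma test, and neither did Cd63 in E2 (0.199) or Tyrobp in either estrogen (0.505 in 4-OHE1, 1.0 in E2). For Trem2, Spp1 and Lgals3 the authors' deposited table counted another transcript than the RPKM table.

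The order of levels within the group changed with treatment. RPKM is per length, so levels of different genes can be set side by side. In every group Apoe was highest and Tyrobp next. In 4-OHE1 they were followed by Cd63, Lgals3, Lpl and Trem2, then by Cd9, Gpnmb and Fabp5, whose libraries overlapped, and by Spp1 at the bottom. In E2, Lgals3 stood above Cd63, Fabp5 and Cd9 overlapped, and Spp1 was again lowest, below Gpnmb. In EtOH, Lgals3 was close below Tyrobp, Lpl stood above Cd63, and Fabp5, Spp1 and Cd9 overlapped at the bottom. Ranked by mean RPKM among all genes, Spp1 was in place 4979 in 4-OHE1, 2554 in E2 and 521 in EtOH, while Tyrobp kept to places 34, 35 and 30. Together the 10 genes made up 1.22% and 1.23% of the exon signal in 4-OHE1, 1.57% and 1.56% in E2, and 2.10% and 2.14% in EtOH, most of it Apoe. Exon signal here is RPKM multiplied by exon length, so these are shares of exon reads and not of RPKM.

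Of 24 further genes of lipid-associated macrophages, all tested, 20 fell and 1 rose in 4-OHE1 against EtOH, 11 fell and 2 rose in E2, and 13 fell and 0 rose in 4-OHE1 against E2. Their median log2 changes were -1.11, -0.54 and -0.57. In the same comparisons 13.9%, 2.17% and 7.14% of all tested genes fell, and 5.74%, 1.75% and 2.5% rose. Psap, the precursor of lysosomal lipid-binding proteins, fell in 4-OHE1 by 0.27 on the log2 scale and had a change of 0.02 in E2 that did not pass. Ctsb, a lysosomal cysteine protease, fell by 0.35 in 4-OHE1 and changed by -0.05 in E2, which did not pass. Fabp4 rose in both estrogens, and Msr1, a scavenger receptor, rose in E2 (log2 change 0.73, limma adjusted p = 0.0453) and did not pass in 4-OHE1 (0.14). Cd36, a fatty acid transporter of macrophages and fat cells, did not pass in any comparison, at 468 ± 31.2 RPKM in 4-OHE1, 709 ± 111 in E2 and 618 ± 2.36 in EtOH (SD, n = 2 each). In E2 against EtOH the count of 13 called genes was 2 without EtOH replicate 2, 3 without EtOH replicate 1, 5 without E2 replicate 1 and 6 without E2 replicate 2. In 4-OHE1 against E2 the count of 13 became 22 on the authors' scaling alone.

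**Figure D4:**
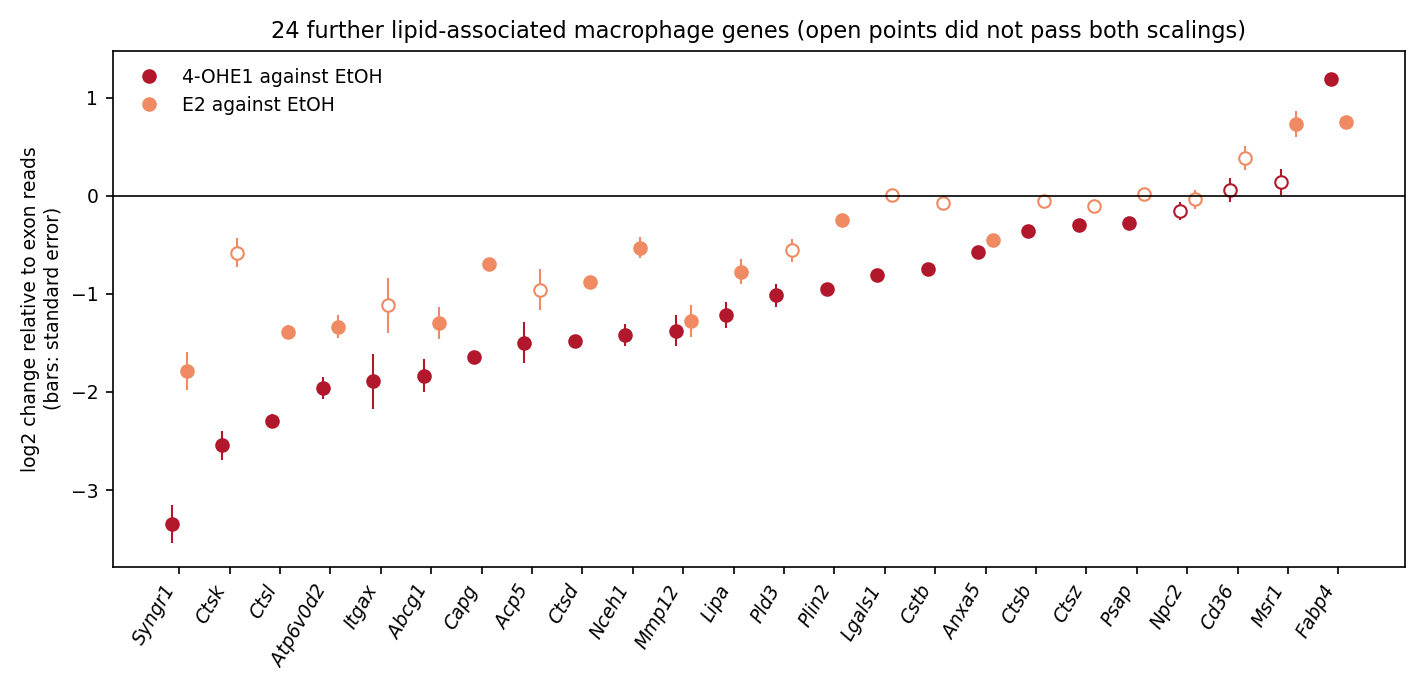
Log2 change relative to exon reads of the 24 further genes of lipid-associated macrophages in 4-OHE1 against EtOH and E2 against EtOH, with standard errors as bars and open points for changes that did not pass both scalings. Syngr1 is lowest at -3.35 in 4-OHE1, and Fabp4 is highest at 1.19 in 4-OHE1.

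Of 12 tested genes of the signalling path from TREM2 and TYROBP, among 16, 4 fell and 2 rose in 4-OHE1 against EtOH, 0 fell and 1 rose in E2, and 1 fell in 4-OHE1 against E2. The shares of all tested genes that fell in these comparisons were 13.9%, 2.17% and 7.14%, and those that rose 5.74%, 1.75% and 2.5%. Syk, the kinase recruited by TYROBP, passed in no comparison (log2 changes -0.14 in 4-OHE1 and 0.08 in E2). In 4-OHE1 the kinase gene Btk (-0.47), the phospholipase gene Plcg2 (-0.46) and Adam17, a protease that sheds surface receptors including TREM2 (-0.82), fell. Sirpb1a, of a receptor family whose near-identical copies can share reads, also fell, listed at 0 in both 4-OHE1 libraries against a mean of 3.26 RPKM in EtOH (limma adjusted p = 0.00357), and it was the gene of the list that fell in 4-OHE1 against E2 (mean of 1.16 RPKM in E2, limma adjusted p = 0.0389). Inpp5d, the lipid phosphatase SHIP1 that restrains this signalling, rose in 4-OHE1 (log2 change 0.86, limma adjusted p = 0.0382). Siglech, a lectin that also signals through TYROBP, rose to 16.1 ± 0.0834 RPKM in 4-OHE1 and 20.0 ± 2.4 RPKM in E2, against 9.49 ± 0.484 RPKM in EtOH (SD, n = 2 each). Adam10, another protease that sheds TREM2, did not pass in any comparison.

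Of 17 tested receptors and partners of the secreted members, among 20, 6 fell and 2 rose in 4-OHE1 against EtOH, 3 fell and 0 rose in E2, and 2 fell and 2 rose in 4-OHE1 against E2. For osteopontin, the receptor gene Cd44 fell in both estrogens (log2 changes -1.39 and -0.61) and in 4-OHE1 against E2 (-0.78), and the integrin gene Itgav fell in 4-OHE1 (-1.67) and did not pass in E2 (-0.98, limma adjusted p = 0.222). For lipoprotein lipase, Lmf1, which matures it, fell in 4-OHE1 (-0.54), as did its inhibitor Angptl4 (-0.75). Gpihbp1, which anchors the lipase on capillaries, rose to 26.7 ± 4.83 RPKM in 4-OHE1, with 14.7 ± 0.240 RPKM in E2 and 12.3 ± 0.948 RPKM in EtOH. For APOE, the receptor gene Lrp1 fell in both estrogens (log2 change -0.56 in 4-OHE1 and -0.64 in E2) and did not pass in 4-OHE1 against E2. Lgals3bp, a secreted ligand of galectin-3, rose in 4-OHE1 (log2 change 0.99) and did not pass in E2 (0.18). Of 10 tested relatives of the members, among 13, 2 fell and 2 rose in 4-OHE1 against EtOH, 1 rose in E2, and 1 fell in 4-OHE1 against E2. Over all tested genes, 13.9% fell and 5.74% rose in 4-OHE1 against EtOH, 2.17% fell and 1.75% rose in E2, and 7.14% fell and 2.5% rose in 4-OHE1 against E2. Counts of 1 or 2 among 10 relatives are thus close to the background. The relatives include Fabp4, Lgals1 and the tetraspanins above.

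Of 11 tested transcription factors of lipid-laden macrophages, among 12, 7 fell in 4-OHE1 against EtOH, 1 fell in E2 and 3 fell in 4-OHE1 against E2, and none rose. Among all tested genes 13.9%, 2.17% and 7.14% fell in these comparisons, and 5.74%, 1.75% and 2.5% rose. Spi1, which encodes PU.1, fell to 192 ± 7.8 RPKM in 4-OHE1 and 235 ± 7.16 RPKM in E2, against 348 ± 5.47 RPKM in EtOH. The log2 changes of Spi1 were -0.40 and -0.37 (limma adjusted p = 0.00686 and 0.0261). Binding of PU.1 to the cores marked above was not tested. Cebpa, a myeloid factor, fell in 4-OHE1 (-0.63). Tfeb, which drives lysosomal genes, fell to 7.09 ± 1.01 RPKM in 4-OHE1, against 25.3 ± 1.01 RPKM in EtOH, and its relative Mitf, a known activator of Gpnmb, fell by 0.96 on the log2 scale in 4-OHE1. Nr1h3, the LXR receptor whose known targets include Apoe and Lpl, fell in 4-OHE1 (-1.39, SE 0.370, limma adjusted p = 0.0365), with 6.07 ± 4.01 RPKM in 4-OHE1, 11.8 ± 0.612 in E2 and 21.3 ± 0.466 in EtOH (SD, n = 2 each).

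The genes whose pattern over the 6 libraries was most like that of Trem2 were looked for among 4820 genes with a mean of at least 10 RPKM, by the root mean square difference in log2 level after each gene's mean was taken out. The nearest were Cd180, a receptor of B cells and macrophages (0.12), Atp6v0d2, a subunit of the lysosomal proton pump (0.12), Sdc1, a heparan sulfate proteoglycan (0.13), Steap3, a metal reductase (0.14), and Actn1, an actin crosslinker (0.14). Atp6v0d2 had 14.9 and 14.9 RPKM in 4-OHE1, 26.3 and 29.9 RPKM in E2, and 80.2 and 84.7 RPKM in EtOH. Among the members, Cd9 (0.17) and Lgals3 (0.20) were nearest to Trem2 and Tyrobp (0.70) and Spp1 (0.68) farthest. With 3 groups of 2 libraries, the measure mostly compares the steps between groups.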

How the data were processed

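The 10 genes and all gene lists were chosen with earlier results of these data known. Per the labels, a KAPA mRNA kit and a HiSeq2500 were used. Per the submitters' processing notes the tools were STAR, HOMER, edgeR and DESeq2 and the build mm9, with no versions. HOMER made the deposited RPKM from reads over RefSeq exons, per the file headers. The authors' 2 deposited tables against EtOH hold a scaled signal per library, log2 fold changes, p-values and adjusted p-values. Divided by 1 factor per library, every one of 119614 non-zero signal values came within 0.05 of a whole number (100%), and the reads so recovered gave exon totals and served edgeR 4.0.16 and DESeq2 1.42.0.

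Changes were tested with limma-trend (limma 3.58.1 under R 4.3.3) on log2(RPKM + 1), over the 10950 genes whose mean RPKM reached 1, in 1 fit of group means with all 6 libraries. Tests were two-sided and Benjamini-Hochberg adjusted, and were run on the authors' RPKM and on RPKM rescaled to exon reads. The added 1 RPKM makes changes of low genes smaller than their RPKM ratio. edgeR's quasi-likelihood test on recovered reads called 3523, 919 and 1748 genes in 4-OHE1 against EtOH, E2 against EtOH and 4-OHE1 against E2. Of the listed genes, those named are the 3 of highest mean RPKM each way that passed in at least 1 comparison, and those that bear on a member. Syngr1, Sirpb1a and the macrophage markers singled out were named after their values were seen.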

Additional observations from a re-analysis of the deposited data

How the results depend on the processing

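Of 480 alternative values of the members' changes, 445 kept direction and side of the threshold, 31 no longer passed, 3 newly passed and 1 reversed: Tyrobp in E2 against EtOH, at 0.0058 without E2 replicate 2 (adjusted p = 0.978), in a range from -0.085 without single libraries. Lgals3, Lpl and Spp1 kept their calls throughout. Members called without single libraries ranged from 8 to 9 in 4-OHE1 against EtOH, 5 to 8 in E2 against EtOH and 3 to 9 in 4-OHE1 against E2. All genes called numbered 2150, 430 and 1056 in these comparisons. They became 4957 (629 higher, 4328 lower), 789 and 2436 on the authors' scaling alone, 3523 (1705 higher, 1818 lower), 919 and 1748 by edgeR, and 3351, 1077 and 1819 by DESeq2. With only the 2 groups compared, E2 against EtOH gave 1029 and 4-OHE1 against E2 gave 338. Without single libraries the ranges were 563 to 3181, 46 to 1037 and 172 to 2241. There the lone library of a group is assumed to vary like the other groups. Other lipid-associated macrophage genes called ranged from 2 to 17 of 24 in E2 against EtOH without single libraries, and reached 22 in 4-OHE1 against E2 on the authors' scaling. Apart from filters and fewer libraries, the cause was not tested. The deviations of same-numbered libraries did not correlate (r = -0.02, -0.01 and 0.01 over 10950 genes). With 2 libraries per group this cannot show whether same-numbered libraries were prepared together. With replicate number as a block, 9, 8 and 8 members and 1911, 330 and 856 genes were called, and Cd63 in 4-OHE1 against E2 was lost (adjusted p = 0.0664). Depth limits Fabp5 and Spp1 most, with 87 and 86 reads in 4-OHE1 replicate 2.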
